A study of Populus tremula x Populus alba with 24 samples.

Results

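LHY1 and LHY2 are the poplar copies of LATE ELONGATED HYPOCOTYL, a morning gene of the plant circadian clock, and their levels were followed in roots after lipochitooligosaccharides (LCO), chitin-based signals through which rhizobia and mycorrhizal fungi address their host plants. The copies were taken by identifier, Potri.002G180800 for LHY1 and Potri.014G106800 for LHY2, which are 2 of 42950 genes in the gene table. The transcript table holds 1 transcript of LHY1 and 3 of LHY2, among 63498 transcripts. The names LHY1 and LHY2 were given with the identifiers and are not in the deposited tables.

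In Arabidopsis, LHY and its close relative CCA1 encode MYB transcription factors that accumulate around dawn and repress evening clock genes such as TOC1. Pseudo-response regulators made later in the day repress LHY and CCA1 in turn, so that LHY transcript is high in the morning, low in the afternoon and evening, and high again at the next dawn. The clock runs in Arabidopsis roots as well as in leaves. The level of a morning gene in a root sample thus depends on the hour of collection.

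The roots came from the hybrid poplar Populus tremula x alba clone 717-1B4, a single genotype, grown on plates with little nitrogen, 0.5 mM, and little phosphate, 7 μM, in days of 16 h of light. Treated roots were immersed for 1 h in 10 nM LCO of Rhizobium sp. IRBG74, from 3 h after dawn. The first were taken after 15 min and 30 min, more followed after 1 h and 2 h, and the last after 4 h, 8 h and 24 h. The control roots, collected at time 0, belong to a solution with 0.005% ethanol. There were 2 libraries at 30 min and at 2 h and 3 in every other group, 22 in all. Roots of 4 plants were combined for each.

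If the times run from the start of the immersion, the control falls 3 h after dawn, the 4 h group at 7 h, the 8 h group at 11 h and the 24 h group at 27 h, which is 3 h after the following dawn. If they run from its end, each lies 1 h later, the control only if it was immersed too. By either reading the 8 h roots were taken in the light of the first day. The 24 h roots were taken after 1 night, at the hour of the control or 1 h after it. There was no control at later times, so at every time except 24 h the effects of LCO and of the time of day cannot be told apart. At 24 h those of LCO, of the day since immersion and of any such shift of 1 h cannot be. The labels do not say plainly whether control roots were immersed.

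Levels are given in TPM, a relative abundance corrected for transcript length, back-transformed from the authors' quantile-normalized log values; their read depth is unknown. Some libraries stand apart from their group over all genes. On the axis of largest variance (42.8% of it), 15 min replicate 2 lay at -75.3 and the other 15 min libraries at 17.2 and 9.91, and it listed 12139 genes at 0 against 9241 and 9265. Replicate 3 of 30 min listed 13313 genes at 0, the most of any library, and 1 h replicate 3 listed 12911. The control, 30 min, 1 h and 2 h libraries all lay between -85.1 and -22.8 on this axis. That range holds 15 min replicate 2 but not the other 15 min libraries, so which of them is unusual is not settled. The root label was not checked against marker genes, because no gene annotation was used here.

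Both copies were well expressed in these roots. LHY1 averaged 19.0 TPM over the 22 libraries, above the mean of 82.1% of all genes in the table, and LHY2 averaged 26.4 TPM, above 86.3%. Each was called different from the control at some time (limma moderated F test, adjusted p = 3.32e-08 for LHY1 and 2.52e-09 for LHY2), as were 58.9% of the 25636 genes tested.

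LHY1 stood at 13.99, 18.0 and 20.6 TPM in the control libraries, 27.1, 21.1 and 30.3 TPM at 15 min, 19.5 and 24.0 TPM at 30 min, and 19.4, 20.9 and 16.8 TPM at 1 h. It stood at 18.3 and 13.5 TPM at 2 h, 9.14, 9.06 and 7.62 TPM at 4 h, 4.80, 4.66 and 5.59 TPM at 8 h, and 37.1, 42.0 and 35.2 TPM at 24 h. The 24 h libraries were the highest of all and the 8 h libraries the lowest, and the 4 h libraries lay below every earlier one.

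LHY2 stood at 23.1, 25.1 and 30.4 TPM in the control libraries, 40.2, 31.0 and 43.9 TPM at 15 min, 24.0 and 34.1 TPM at 30 min, and 25.3, 22.5 and 18.4 TPM at 1 h. It stood at 21.7 and 14.4 TPM at 2 h, 9.06, 9.63 and 9.72 TPM at 4 h, 3.86, 3.36 and 2.71 TPM at 8 h, and 51.6, 63.9 and 71.7 TPM at 24 h. The libraries at both ends of the range were again those of 24 h and 8 h, and the range was wider than that of LHY1. Between the highest and the lowest group mean, 24 h and 8 h, LHY2 differed 18.9-fold and LHY1 7.59-fold.

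**Figure D1:**
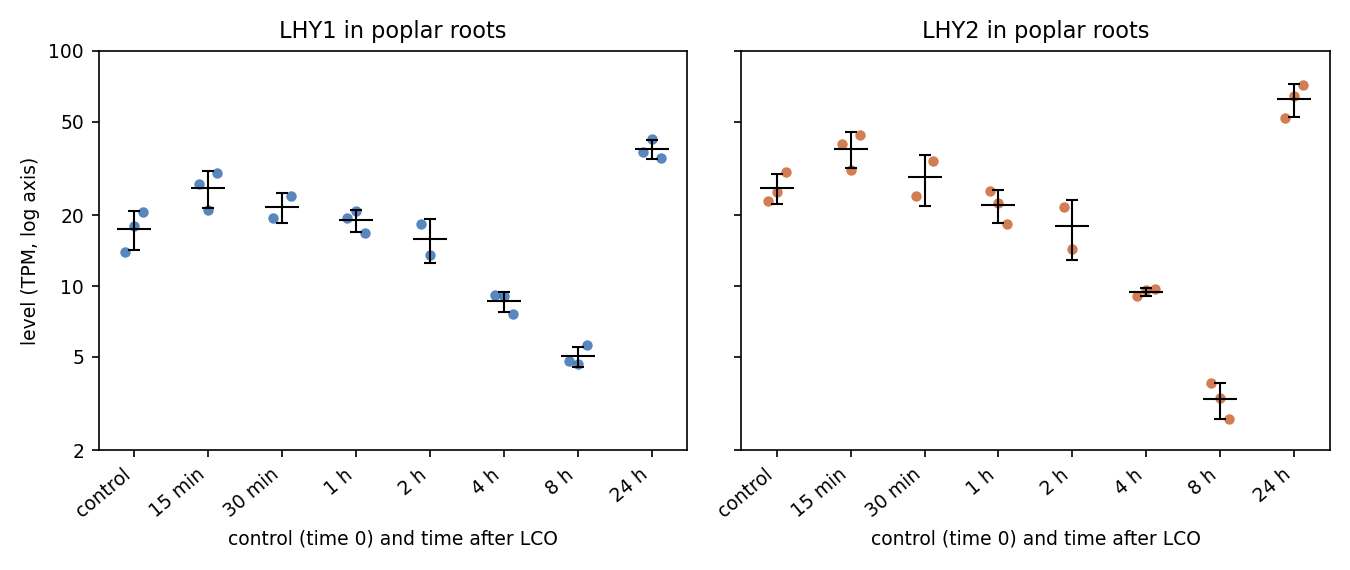
Level of LHY1 (left) and LHY2 (right) in TPM on a log axis, for the control at time 0 and each time after LCO; times are equally spaced. Points are libraries, long ticks are group means and whiskers are 1 SD; both copies are lowest at 8 h (means 5.02 and 3.31 TPM) and highest at 24 h (38.1 and 62.4 TPM).

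The early times asked whether the copies moved soon after the immersion began. At 15 min LHY1 averaged 26.1 ± 4.69 TPM, against 17.5 ± 3.33 TPM in the control (SD, n = 3 each), and LHY2 averaged 38.4 ± 6.61 TPM, against 26.2 ± 3.79 TPM. All 3 treated libraries lay above all 3 controls for both copies, yet neither difference passed the threshold of an adjusted p under 0.05. The log2 fold change, taken on log2(TPM + 1) here and below, was 0.55 for LHY1 (SE 0.17, limma adjusted p = 0.0534) and 0.53 for LHY2 (SE 0.19, adjusted p = 0.101). At this time 8.06% of all genes tested were called.

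Replicate 2 of 15 min, unlike the others of its group over all genes, was also the lowest of them for both copies. On the axis of largest variance it lay within the range of the control, 30 min, 1 h and 2 h libraries, and the others did not. Without 15 min replicate 2 the log2 fold changes were 0.69 (adjusted p = 0.0102) for LHY1 and 0.67 (adjusted p = 0.0275) for LHY2, and both copies passed. Which of the 15 min libraries is the unusual one was not tested, so passing without replicate 2 does not settle the call. LHY1 also passed without control replicate 3, at 0.67 (adjusted p = 0.0425). Its value stayed at 0.55 and passed without 30 min replicate 1 (adjusted p = 0.0469) or 30 min replicate 3 (adjusted p = 0.0469), libraries that enter this comparison only through the shared estimate of spread.

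At 30 min, 1 h and 2 h neither copy was called against the control, where 1.78%, 2.88% and 4.19% of genes were. At 30 min LHY1 averaged 21.8 ± 3.19 TPM and LHY2 29.1 ± 7.11 TPM (n = 2), and at 1 h they averaged 19.0 ± 2.09 TPM and 22.1 ± 3.48 TPM (n = 3). At 2 h LHY1 was at 15.9 ± 3.39 TPM and LHY2 at 18.1 ± 5.15 TPM (n = 2). These groups overlapped the control for LHY1, and for LHY2 the 2 h libraries lay below the control libraries. For LHY2 the 95% interval of the log2 fold change at 2 h ran from -0.99 to -0.08, with an adjusted p of 0.210 over all genes (limma). Its value of -0.53 became -0.81 when the first 2 h library was left out and -0.25 when the other was, and neither passed. For LHY1 it ran from -0.53 to 0.27, with an adjusted p of 0.795.

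At 4 h, which is 7 or 8 h after dawn, both copies fell below the control. LHY1 was at 8.61 ± 0.856 TPM, against 17.5 ± 3.33 TPM in the control, 2.04-fold lower (SD, n = 3 each). LHY2 was at 9.47 ± 0.357 TPM, against 26.2 ± 3.79 TPM, 2.77-fold lower. The log2 fold change was -0.94 for LHY1 (95% interval -1.29 to -0.58, limma adjusted p = 0.00153) and -1.37 for LHY2 (-1.78 to -0.96, adjusted p = 0.000155). No treated library reached the level of any control library for either copy. Of all genes tested, 9.56% were called at 4 h, and 4.95% were called lower.

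At 8 h both copies reached their lowest level. LHY1 was at 5.02 ± 0.503 TPM, 3.49-fold below its control mean, and LHY2 was at 3.31 ± 0.578 TPM, 7.92-fold below its own. The log2 fold change was -1.61 for LHY1 (95% interval -1.97 to -1.25, limma adjusted p = 3.35e-06) and -2.66 for LHY2 (-3.06 to -2.25, adjusted p = 4.40e-08). Among 25636 genes, of which 36.3% were called at this time and 16.1% called lower, LHY2 ranked 42 by p-value and LHY1 ranked 184. In whole roots, fewer cells with the transcript and less transcript per cell cannot be told apart.

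At 24 h, when the hour was again that of the control or 1 h after it, both copies lay above the control. LHY1 was at 38.1 ± 3.51 TPM, against 17.5 ± 3.33 TPM in the control, 2.17-fold higher, and LHY2 was at 62.4 ± 10.1 TPM, against 26.2 ± 3.79 TPM, 2.38-fold higher (SD, n = 3 each). The log2 fold change was 1.09 for LHY1 (95% interval 0.73 to 1.45, limma adjusted p = 0.000130) and 1.22 for LHY2 (0.81 to 1.62, adjusted p = 0.000153). The lowest 24 h library, 35.2 TPM for LHY1 and 51.6 TPM for LHY2, lay above the highest control, 20.6 TPM for LHY1 and 30.4 TPM for LHY2. Of all genes, 35.8% were called at 24 h and 20.1% were called higher, so a call alone does not set the copies apart from the rest of the transcriptome at this time.

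**Figure D2:**
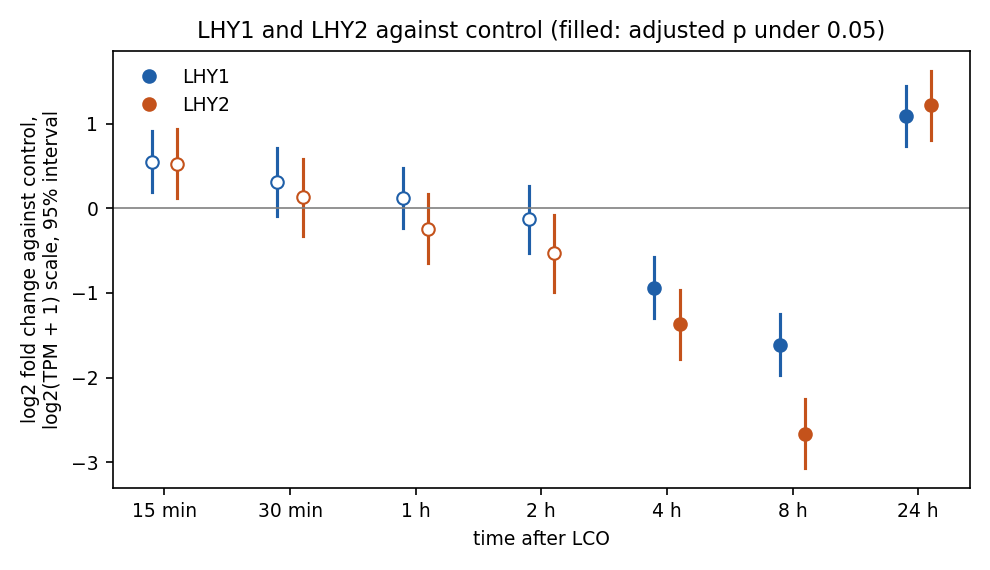
Log2 fold change of LHY1 and LHY2 against control at each time after LCO, on the log2(TPM + 1) scale, with its 95% interval from limma; filled points have an adjusted p under 0.05. The intervals lie above 0 at 15 min, and that of LHY2 lies below 0 at 2 h, without passing the adjusted threshold. Those of both copies lie below 0 at 4 h and 8 h, and above 0 at 24 h.

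The direct comparison of 24 h with 8 h set the copies apart more sharply. LHY2 rose to 62.4 ± 10.1 TPM at 24 h, against 3.31 ± 0.578 TPM at 8 h, a log2 fold change of 3.88 (95% interval 3.47 to 4.28, limma adjusted p = 3.50e-09). LHY1 rose to 38.1 ± 3.51 TPM, against 5.02 ± 0.503 TPM, a log2 fold change of 2.70 (2.34 to 3.06, adjusted p = 4.33e-08). By p-value LHY2 ranked 1 and LHY1 ranked 4 among the 25636 genes tested, of which 2.65% were called and 1.23% called higher. By size of the fold change they ranked 2 and 18.

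The calls of the copies at 8 h and 24 h were also counted over the table. Of 25636 genes, 13 were called lower than control at 8 h and higher at 24 h (limma). LHY1 and LHY2 are among them by construction, since the pattern was taken from their calls. Both comparisons use the same 3 control libraries. A shift of the control mean moves both fold changes the same way, which makes opposite calls rarer for any gene. The count is thus no test of the copies. Leaving out any one of control replicates 2 and 3, 8 h replicate 2 and 24 h replicate 1 brought the number to 8, and over all alternatives it lay between 8 and 19.

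The group means were next put in order, from high to low, to see which neighbours differ. For LHY1 the order was 24 h, 15 min, 30 min, 1 h, control, 2 h, 4 h and 8 h. For LHY2 it was the same except that the control lay above 1 h. From 15 min down to 2 h no neighbour was called different from the next for either copy, with adjusted p-values between 0.254 and 0.832 (limma, over all genes). Few genes of the table were called between these neighbours, 0.495% at 30 min against 15 min, 0.0468% at 1 h against 30 min and 0.761% at 2 h against 1 h. Over longer steps the fall after 15 min did pass: at 2 h LHY1 was lower than at 15 min by a log2 fold change of -0.68 (adjusted p = 0.0254) and LHY2 by one of -1.06 (adjusted p = 0.00372), where 12.6% of genes were called. At 1 h against 15 min, where 6.84% were called, LHY2 passed (-0.77, adjusted p = 0.0273) and LHY1 did not (-0.43, adjusted p = 0.121). These calls depend on the fit and on single libraries. When only the libraries of the compared groups were fitted, adjusted p-values were 0.261 for LHY1 and 0.145 for LHY2 at 2 h, and 0.289 for LHY2 at 1 h. The 2 h call was also lost without 2 h replicate 2 for LHY1 (adjusted p = 0.284) and LHY2 (adjusted p = 0.106), and for LHY1 without 15 min replicate 1 (0.0825) or 3 (0.0981). The 1 h call of LHY2 was lost too without 15 min replicate 1 or 3 or 1 h replicate 2 or 3 (adjusted p between 0.0640 and 0.128), and LHY1 passed at 1 h without 15 min replicate 2 (0.0235). At the upper end, 24 h was called above 15 min for LHY1 (log2 fold change 0.54, adjusted p = 0.0232) and LHY2 (0.69, adjusted p = 0.0118), where 30.6% of genes were called. Without 15 min replicate 2 these were 0.39 (adjusted p = 0.109) and 0.55 (adjusted p = 0.0578), and neither passed. The LHY1 call was also lost without 24 h replicate 1 (adjusted p = 0.0501) or 2 (0.0899), and the LHY2 call without 24 h replicate 3 (0.0562). With only the libraries of 24 h and 15 min fitted, neither copy passed (0.0959 for LHY1 and 0.0622 for LHY2).

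At the lower end, 8 h was below 4 h for LHY2 (log2 fold change -1.29, limma adjusted p = 0.00128) and LHY1 (-0.67, adjusted p = 0.0135), where 18.6% of genes were called. The LHY1 call was lost without 4 h replicate 1 (adjusted p = 0.0659) or 8 h replicate 2 (adjusted p = 0.0533). The step to 4 h from 2 h was close to the threshold for both copies, at -0.80 for LHY1 (adjusted p = 0.0460) and -0.84 for LHY2 (adjusted p = 0.0683). Here 1.25% of genes were called, and 19 of 31 alternatives ended the LHY1 call (adjusted p in these between 0.05003 and 0.450), among them leaving out any library of 2 h or 4 h. LHY2 passed without 15 min replicate 2 (adjusted p = 0.0431).

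The pace of the fall differed between the intervals and between the copies. Between 1 h and 4 h the mean log2 TPM, here without a pseudocount, changed by -0.38 per hour for LHY1 and -0.40 per hour for LHY2. Between 4 h and 8 h it changed by -0.19 per hour for LHY1, a halving in 5.14 h, and by -0.38 per hour for LHY2, a halving in 2.61 h. The fall of LHY1 was thus slower in the later interval, and that of LHY2 kept nearly the same pace; this is a description of group means.

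The balance of the copies was therefore compared within libraries. TPM is corrected for length, so the estimates of LHY1 and LHY2 are set side by side here. Other differences in how reads were assigned to each copy were not tested, so which copy is truly higher is not settled. LHY2 was above LHY1 in 18 of 22 libraries and below it in 4, which were all 3 libraries of 8 h and 1 of 4 h. LHY2 TPM divided by LHY1 TPM was 1.65, 1.39 and 1.48 in the control libraries, 1.48, 1.47 and 1.45 at 15 min, and 1.31, 1.08 and 1.10 at 1 h. It was 0.991, 1.06 and 1.28 at 4 h, 0.804, 0.721 and 0.485 at 8 h, and 1.39, 1.52 and 2.04 at 24 h. The ratio was thus highest at 24 h, in the control and at 15 min, and below 1 in every 8 h library.

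A test of this difference set the libraries of 4 h and 8 h, 7 to 12 h after dawn and called afternoon here, against those of 24 h and the control, called morning. All afternoon libraries came from roots given LCO, and only the morning side holds controls, so LCO and the time of day are not separated. The log2 ratio of LHY2 to LHY1, from log2(TPM + 1) values, averaged -0.18 ± 0.40 in the afternoon and 0.63 ± 0.20 in the morning (SD, n = 6 each). The difference was -0.81, with p = 0.002165 in an exact two-sided permutation test, the smallest value that 924 arrangements allow. The ranges did not overlap: -0.83 to 0.31 in the afternoon and 0.46 to 1.01 in the morning. The test took the libraries of a side as independent, although each side joins different collection times. Within the afternoon, 4 h (-0.01 to 0.31) and 8 h (-0.83 to -0.26) did not overlap. The p thus does not measure the spread between times of a part of the day. It and the gap between the ranges belong to the groups pooled, since the times between were left out of the test. Their log2 ratios were 0.52 to 0.55 at 15 min, 0.29 and 0.49 at 30 min, 0.10, 0.12 and 0.37 at 1 h, and 0.23 and 0.09 at 2 h. The 1 h and 2 h means, 0.20 and 0.16, lay near the 4 h mean of 0.13, and the 8 h mean was -0.49. LHY2 thus changed by a larger factor than LHY1 between the pooled groups.

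Single times have too few libraries for such a test to pass, since 3 against 3 cannot give a p below 0.1. The log2 ratio at 8 h was lower than in the control by 1.05 (exact permutation p = 0.1, adjusted p = 0.15 over 6 such comparisons). At 4 h it was lower by 0.43 and at 1 h by 0.36, each with all libraries below all controls and the same p-values. At 24 h it differed from the control by 0.13 (exact permutation p = 0.6, adjusted p = 0.72), with overlapping ranges of 0.47 to 1.01 at 24 h and 0.46 to 0.68 in the control. Whether reads common to both copies were shared between them in the authors' estimates was not tested.

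**Figure D3:**
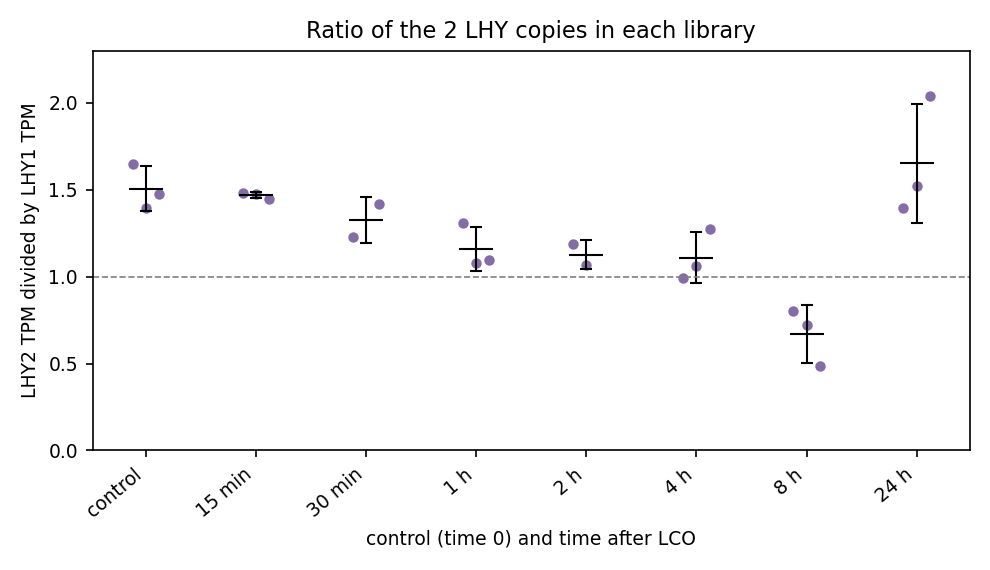
LHY2 TPM divided by LHY1 TPM in each library, for the control and each time after LCO; long ticks are group means, whiskers 1 SD, and the dashed line marks equal levels. The ratio averages 1.51 in the control, 0.670 at 8 h and 1.65 at 24 h, and all 3 libraries of 8 h lie below the line.

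Within groups the copies also tended to deviate together from the control to 2 h, but not at 8 h. After each library's log2 level was set against its group mean, deviations of LHY1 and LHY2 had the same sign in 15 of 22 libraries. The signs were opposite in every 8 h library, in 4 h replicates 1 and 3, in 24 h replicate 3 and in control replicate 2. At 30 min and 2 h, with 2 libraries each, the deviations mirror each other. Over all libraries the Pearson r of the LHY1 and LHY2 deviations was 0.630 (p = 0.0283) and the Spearman rho 0.656 (p = 0.0281), by 100000 permutations of libraries within groups. Without control replicate 1 and 15 min replicate 2, the libraries farthest out for LHY1, r was 0.547 (permutation p = 0.103, n = 20), so the relation rests in part on those libraries. This was the only such relation computed.

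The transcript table showed which transcripts carry these levels. LHY1 has only transcript 8 there, at 5.04 ± 0.524 TPM at 8 h and 38.8 ± 3.52 TPM at 24 h, against 17.4 ± 3.41 TPM in the control (SD, n = 3 each), close to the gene's own values. For LHY2, transcript 12 was the main one, with 94.1% of the summed transcript level on average over the 22 libraries. It was at 2.85 ± 0.962 TPM at 8 h and 57.4 ± 9.62 TPM at 24 h, against 25.0 ± 3.98 TPM in the control. Transcript 12 fell at 4 h (log2 fold change -1.35, limma adjusted p = 0.000752), where 6.12% of the 29885 transcripts tested were called. It fell further below the control at 8 h (log2 fold change -2.78, limma adjusted p = 2.05e-07) and rose at 24 h (1.17, adjusted p = 0.000768), where 29.6% and 30.3% were called.

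Its share of the LHY2 sum was 92.1% ± 9.55 in the afternoon libraries and 94.5% ± 2.40 in the morning libraries (SD, n = 6 each). The difference of -2.43 percentage points had p = 0.866 in an exact two-sided permutation test. It rested on 8 h replicate 3, where the share was 72.8%: without this library the difference was 1.43 points (p = 0.273, exact permutation).

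The other LHY2 transcripts were low, with means over all libraries of 0.404 TPM for transcript 13 and 0.990 TPM for transcript 14, under the minimum of 1 TPM for testing. Transcript 13 stood at 3.05, 1.57 and 1.29 TPM at 24 h, against 0.0314, 0.0378 and 0.0313 TPM in the control. Outside 24 h it passed 0.3 TPM in 1 library only, 15 min replicate 1, at 1.79 TPM, and it was listed at 0 in 15 min replicate 2 and 1 h replicate 3. When transcripts were tested without a minimum, it was called higher at 24 h than in the control (log2 fold change 1.48, SE 0.29, limma adjusted p = 0.00287), where 15.3% of 56982 transcripts were, and higher than at 8 h (1.41, adjusted p = 0.0369), where 0.709% were. Its share of the LHY2 sum at 24 h was 6.10%, 2.49% and 1.84%, against 0.136%, 0.151% and 0.103% in the control. In 8 h replicate 3, where the LHY2 sum was lowest, the share of transcript 13 was 11.2%.

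Transcript 14 varied within groups and followed no such course. It was at 0.224, 1.80 and 3.16 TPM at 24 h, against 1.94, 0.298 and 1.40 TPM in the control, and was not called at 24 h (log2 fold change 0.21, limma adjusted p = 0.912, without a minimum). How reads that fit several transcripts were divided weighs most on levels this low, and the tables hold no error for it.

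**Figure D4:**
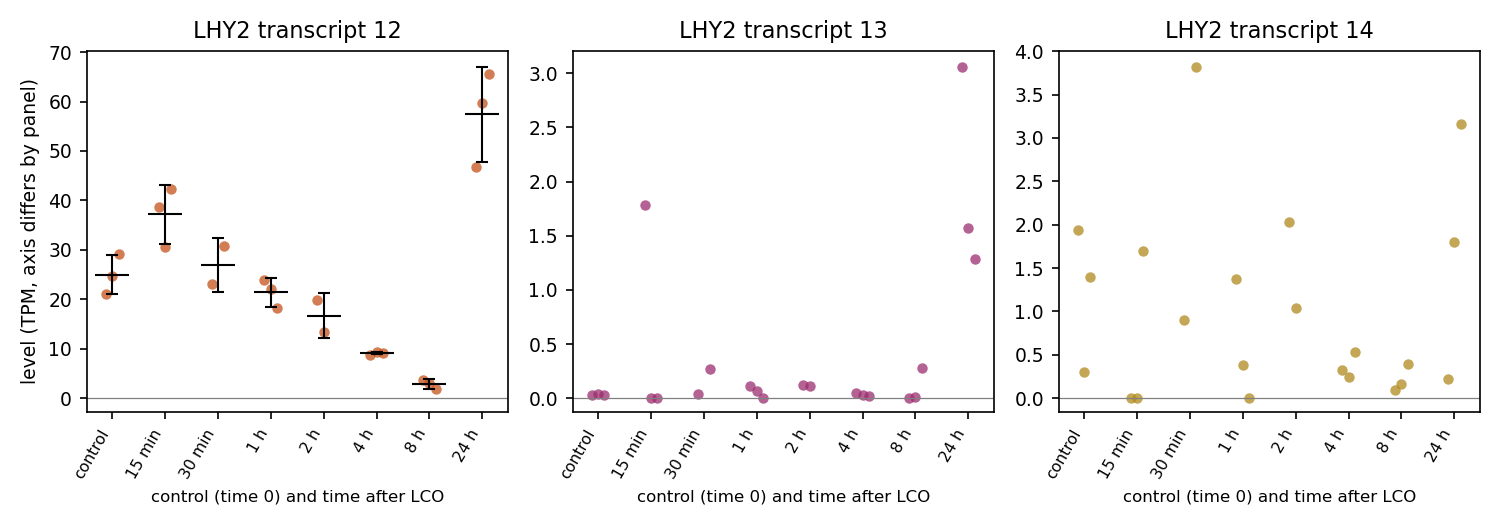
Level in TPM of the LHY2 transcripts 12, 13 and 14 in each library, for the control and each time after LCO; the axis differs by panel, and ticks and whiskers (mean and 1 SD) are drawn for transcript 12 only. Transcript 12 carries the course of the gene, from 2.85 TPM at 8 h to 57.4 TPM at 24 h on average, and transcript 13 is above 1 TPM in the 24 h libraries and in 1 library of 15 min.

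The genes whose course is most like that of the copies were sought by Pearson r of log2(TPM + 1) over the 22 libraries, among 20020 other genes with a group mean of at least 5 TPM. The libraries fall into times, so r describes a shared course and carries no test. For each copy the most similar gene was the other copy, with r = 0.981 over libraries and 0.992 over the 8 group means. Only 5 genes had r above 0.9 with LHY1 and 4 with LHY2, and 3 genes had r below -0.9 with each.

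Next after the copies came Potri.001G031800, with r = 0.933 to LHY1 and 0.960 to LHY2. It averaged 2.83 ± 0.228 TPM at 8 h and 34.5 ± 6.71 TPM at 24 h, against 30.6 ± 4.98 TPM in the control (SD, n = 3 each). It fell at 8 h (log2 fold change -3.04, limma adjusted p = 3.77e-09) and was not called at 24 h (0.16, adjusted p = 0.505), where both copies were. Potri.002G049700 had r = 0.929 to LHY1 and 0.918 to LHY2 over a far smaller range, with 12.9 ± 1.03 TPM at 8 h and 23.2 ± 0.612 TPM at 24 h, against 16.5 ± 0.898 TPM in the control. It was called lower at 8 h (-0.34, adjusted p = 0.0211) and higher at 24 h (0.47, adjusted p = 0.00300). Potri.001G025100 had r = 0.906 to LHY1 and 0.919 to LHY2. It averaged 4.82 ± 0.522 TPM at 8 h and 38.2 ± 6.77 TPM at 24 h, against 16.6 ± 1.38 TPM in the control. It was called lower at 4 h (-1.23, limma adjusted p = 0.000529) and 8 h (-1.60, adjusted p = 1.58e-05), and higher at 24 h (1.14, adjusted p = 0.000332). In all 4 genes had these calls, both copies among them, as the pattern was taken from the copies.

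The most opposite course was that of Potri.009G041100, with r = -0.954 to LHY1 and -0.915 to LHY2. It averaged 84.4 ± 8.90 TPM at 8 h and 5.04 ± 5.07 TPM at 24 h, against 14.5 ± 6.50 TPM in the control (SD, n = 3 each), and was called higher at 8 h (log2 fold change 2.55, limma adjusted p = 0.000710) and lower at 24 h (-1.58, adjusted p = 0.0167). Potri.014G029000, with r = -0.902 and -0.906, averaged 18.6 ± 3.67 TPM at 8 h, against 4.20 ± 1.47 TPM in the control. It rose at 8 h (1.94, adjusted p = 9.86e-06) and at 24 h stood at 2.57 ± 0.613 TPM (-0.52, adjusted p = 0.0843). The deposited tables give none of these similar and opposite genes a name, and none is assigned here.

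**Figure D5:**
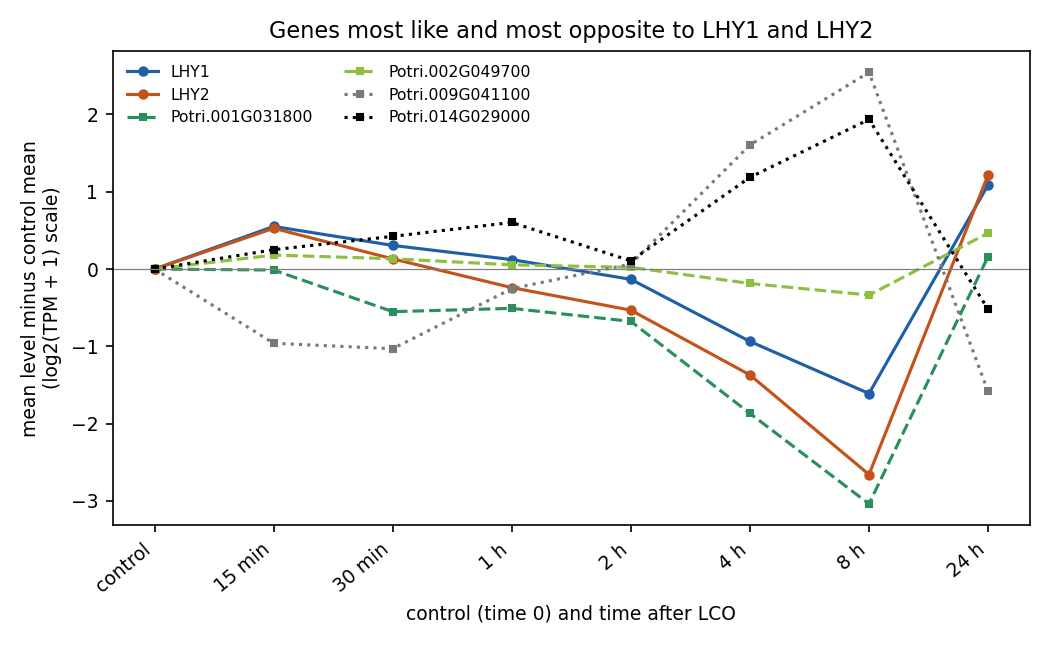
Mean level minus the control mean on the log2(TPM + 1) scale, for LHY1 and LHY2 (solid), the 2 genes most alike (dashed) and 2 of the most opposite genes (dotted), for the control and each time after LCO; times are equally spaced. At 8 h the copies lie at -1.61 and -2.66, and the opposite genes at 2.55 and 1.94.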

How the data were processed

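Root RNA was sequenced from 24 labelled samples, of which 22 have a column in the tables. The second 30 min replicate and the 2 h replicate numbered 3 were not analysed here. The authors' deposited values are natural logs of TPM plus 1 after quantile normalization. The base was settled from the values: with base e the libraries of the gene table sum to 936253 to 936552 TPM, with base 2 to 204126 to 204330. Kallisto and sleuth are named in the submitters' processing notes, without role or version. The genome build is not stated in those notes. Identifiers are of Populus trichocarpa, the samples of Populus tremula x alba. Quantile normalization removes any change in total output, and TPM keeps no depth, so no counting interval is given and a value listed at 0 does not show absence.

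TPM was computed back from the logs and analysed as log2(TPM + 1), whose pseudocount of 1 TPM makes fold changes of low genes smaller. The whole gene table was fitted in limma 3.58.1 under R 4.3.3 (25636 genes whose mean reached 1 TPM, 1 mean per group, 14 residual degrees of freedom, empirical Bayes with a mean-variance trend, two-sided). P-values were adjusted by Benjamini-Hochberg over all genes tested, with a threshold of 0.05. Transcripts were fitted separately (29885 tested). Exact permutation tests used scipy 1.17.1 under Python 3.11.15, and plots matplotlib 3.10.9. The fit was also run on simulated data with independent normal noise for each gene. Those data hold no shifts of whole libraries such as are seen here, so that run does not speak for the counts called. P-values measure the spread between pools of plants, called biological replicates in the labels.

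The members, the tests and the lists were chosen with earlier results of these data known. The rule for named genes takes both copies and, for each, the 5 genes with the highest and the 3 with the lowest r. As no annotation was used, not all are named. Those named are the 2 of highest mean r, the 2 of lowest r that stand in the lists of both copies, and Potri.001G025100. The last was added afterwards, as it shares the copies' calls at 4 h, 8 h and 24 h. The planned lists of clock genes and tissue markers needed an annotation and were not used. No sequence is shown.

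The design had assumed TPM rather than its log. Replicate numbers were not taken as pairs. Over all genes, deviations from group means correlated at a median of 0.048 for libraries of the same number in different groups, and 23 of 70 such pairs were over 0.1. For libraries of different number the median was -0.0313, and 30 of 141 pairs were over 0.1. Libraries of the same number were thus somewhat more alike, and a replicate block was run as an alternative.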

Additional observations from a re-analysis of the deposited data

How the results depend on the processing

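For the levels of LHY1 and LHY2 (gene and main transcript), the F tests, the ratio and the transcript share, 912 of 932 recomputed values kept direction and side of the threshold, and no call among them was lost: the falls at 4 h and 8 h and the rises at 24 h, against control and against 8 h, passed under every alternative run. Changing the filter or the trend, or leaving out a library of a group not compared, leaves a log2 fold change as it was. In such alternatives its direction could not turn, so the total says little about direction. The total also says little about the threshold. LHY1 transcript 8, the only transcript of its gene, repeats the gene's result. Comparisons with control at 30 min, 1 h and 2 h, where neither copy was called, count as kept too. Steps between LCO times are not in the total. A replicate block changed no call among 32 of these results but ended that of LHY1 at 4 h against 2 h (-0.83, adjusted p = 0.0536); it gave a log2 fold change of 1.09 for LHY1 and 1.22 for LHY2 at 24 h against control. LHY1 at 15 min passed with a pseudocount of 5 TPM (0.47, limma adjusted p = 0.0457), with a minimum mean of 5 TPM (0.55, adjusted p = 0.0445) and, as added after seeing the data, without both 15 min replicate 2 and 30 min replicate 3 (0.69, adjusted p = 0.00834; LHY2 0.67, adjusted p = 0.0189). That setting turned LHY2 at 30 min to -0.11. When each library was left out in turn, log2 fold changes against control ranged from 0.41 to 0.69 for LHY1 and 0.43 to 0.67 for LHY2 at 15 min (transcript 8, 0.42 to 0.72; transcript 12, 0.44 to 0.68), from -0.11 to 0.38 for LHY2 at 30 min (transcript 12, -0.10 to 0.30), from -0.0227 to 0.24 for LHY1 at 1 h (transcript 8, -0.0300 to 0.24), from -0.34 to 0.0738 for LHY1 at 2 h (transcript 8, -0.34 to 0.0723), from 0.16 to 0.45 for LHY1 at 30 min, from -0.34 to -0.12 for LHY2 at 1 h and from -0.81 to -0.25 for LHY2 at 2 h. The 15 min calls came and went with the library left out, and in the other ranges, some of which cross 0, no value passed the threshold. The difference in transcript 12 share ranged from -3.53 to 1.43 points. Calls between LCO times that alternatives ended are given with the results. The cause of these moves was not tested. Counts of genes called moved by more than 1.5 times at 15 min (2066, alternatives 240 to 6761), 30 min (456, 37 to 4501), 1 h (739, 234 to 1370), 2 h (1073, 346 to 1706), 4 h (2452, 1352 to 3558) and 24 h against 8 h (679, 219 to 1185), and between LCO times at 1 h against 15 min (1753, 20 to 8062), 2 h against 15 min (3225, 244 to 8079), 4 h against 2 h (321, 19 to 761), 8 h against 4 h (4762, 1335 to 8986) and 24 h against 15 min (7849, 4536 to 8533). An F test from only the libraries of a pair of groups was not run, as it needs all groups. Read depth is unknown, so what it limits cannot be given.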
